A study of Arabidopsis thaliana with 20 samples.

Results

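XERICO (AT2G04240), DI21 (AT4G15910), SIS (AT5G02020) and CCL (AT3G26740) are 4 nuclear genes of Arabidopsis thaliana linked to drought, salt, abscisic acid or the circadian clock. Each was represented by the row of the expression table whose probe annotation lists that gene and no other, which gave 4 of the 692 rows listing exactly 1 gene, in a table of 3439 rows. The genes were selected on earlier results of the same genotype comparison of these intensities, so their levels and differences are given as a description, with no test. The array compared atpc1-1 plants, which according to the labels lack the γ subunit of the ATP synthase, with wild-type plants (WT). Both genotypes were ecotype Columbia 0 and grown on MS medium, a mineral salt medium for sterile culture, and each had 10 array columns of total RNA. The labels do not state the tissue, the age of the plants or the time of day at harvest.

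Abscisic acid is the plant hormone that accumulates when water is short, closes stomata and switches on protective genes. XERICO encodes a small RING-H2 zinc-finger protein, and plants that overexpress it hold more abscisic acid and survive drought better. DI21 (drought-induced 21) encodes a small protein of the late embryogenesis abundant type, a class that accumulates in drying tissue and seeds. SIS (Salt Induced Serine rich) was named for its response to salt. CCL (CCR-like) encodes a short-lived transcript whose level follows the circadian clock, the internal timer that sets many plant transcripts to a time of day. The chloroplast ATP synthase makes ATP from the proton gradient that photosynthetic electron transport builds across the thylakoid membrane.

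Values are the deposited linear intensities, in arbitrary units. Columns of adjoining number (1 with 2, 3 with 4 and so on) were averaged on the log2 scale to 5 replicates per genotype, because in 10 of 10 columns of each genotype the deviation from the genotype mean correlated best with that neighbour. The correlation between neighbours was weak in part of atpc1-1, at 0.00859 to 0.490, against 0.388 to 0.869 in WT. Replicate means of intensity and their folds are plain averages of the 2 columns. Nothing in the labels ties the 5 replicates to separate plants, and their spread may be technical. Column means ran from 0.920 to 0.973 in atpc1-1 and from 1.01 to 1.06 in WT, but column medians ran from 0.130 to 0.224 in atpc1-1 and from 0.339 to 0.493 in WT. Rows at 0 made up 5.70% to 20.8% of an atpc1-1 column and 3.63% to 4.36% of a WT column. WT replicate 5 stood apart, with rank correlations of 0.832 to 0.849 with the atpc1-1 replicates across the 1761 rows above 0 in all 20 columns, where WT replicates 1 to 4 reached 0.589 to 0.783. With the other WT replicates it correlated at only 0.806 to 0.834. In bulk RNA, fewer cells of a type and less RNA per cell cannot be told apart.

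All 4 genes stood lower in atpc1-1 on the deposited scale, by very different amounts. The difference in log2 of the deposited intensity, atpc1-1 minus WT, was -3.13 for SIS (SE 0.56), -1.60 for DI21 (SE 0.42), -0.91 for XERICO (SE 0.22) and -0.21 for CCL (SE 0.22). The typical row of the table was also lower on this scale, with a median difference of -1.22 over the 3298 rows tested. The estimates for SIS and DI21 were thus below the typical row, while those for XERICO and CCL were above it. The distance from that median was -0.38 for DI21, which is within its SE, and 0.31 for XERICO. After quantile normalisation, which gives every column the same distribution of values, the log2 differences of XERICO, DI21 and CCL lay close together, at -1.02 (SE 0.24), -1.06 (SE 0.33) and -0.97 (SE 0.22). SIS stood at -1.61 (SE 0.44), and the median of all rows was -0.19.

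XERICO was among the brighter rows in both genotypes. Its deposited intensity was lowest at 1.89, had a median of 2.67 and was highest at 3.10 over the 10 atpc1-1 columns, against 4.11, 4.65 and 6.26 over the 10 WT columns. Every atpc1-1 column was below every WT column. The replicate means were 2.65 ± 0.31 in atpc1-1 and 4.98 ± 0.85 in WT (SD, n = 5 each), and XERICO was 1.88-fold lower in atpc1-1 on the log2 deposited scale. The groups kept apart by rank as well. XERICO held a percentile of 92.1 to 95.1 within the atpc1-1 columns, counted from the dimmest row, against 96.1 to 97.9 within the WT columns. Put as a count, 168 to 271 rows were brighter than XERICO in an atpc1-1 column and 72 to 133 rows in a WT column.

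Set against the median row of its own column, XERICO did not keep that direction. It was 10.1 to 23.7 times the column median in atpc1-1 columns, with a median of 17.39, against 8.89 to 13.5 times in WT columns, with a median of 11.8. Those multiples use the median of all rows, zeros included, whereas median centring here uses the median of the values above 0. After such centring the log2 level was 3.65 ± 0.43 in atpc1-1 and 3.40 ± 0.25 in WT (SD, n = 5 each), a difference of 0.26 (SE 0.28). The atpc1-1 replicates 1 to 5 stood at 3.13, 3.31, 3.68, 4.03 and 4.13, against WT replicates at 3.17, 3.62, 3.50, 3.09 and 3.61, so 3 atpc1-1 replicates were above all of WT and the other two were not. XERICO thus had a lower intensity and a lower rank in every atpc1-1 column than in any WT column. Its multiple of the median was above the WT range in only part of the atpc1-1 columns.

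DI21 was of middling to high brightness and varied more between atpc1-1 replicates than any other member measured in all columns. Its deposited intensity was lowest at 0.219, had a median of 0.499 and was highest at 1.22 in atpc1-1 columns, against 1.07, 1.67 and 2.38 in WT columns. The genotypes overlapped only through atpc1-1 columns 1 and 2, at 1.22 and 1.16, and WT column 6, at 1.07. The mean was 0.637 ± 0.376 in atpc1-1 and 1.70 ± 0.40 in WT (SD of replicate means, n = 5 each).

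The spread of DI21 lay between the replicates and not between the columns of a pair. The 2 columns of an atpc1-1 pair differed by 1.03-fold to 1.16-fold, while the highest replicate, replicate 1, was 5.24 times the lowest, replicate 5. In WT the columns of a pair likewise differed by 1.03-fold to 1.17-fold, and the highest replicate was 1.97 times the lowest. The order of the atpc1-1 replicates was not that of XERICO, which was lowest in replicate 1 (mean intensity 2.23) and highest in replicate 4 (2.97).

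By rank DI21 also overlapped. Its percentile ran from 63.5 to 88.6 in atpc1-1 columns, with a median of 77.3, against 81.0 to 92.5 in WT columns, with a median of 88.7. The mean percentile was 77.9 ± 9.3 in atpc1-1 and 88.3 ± 3.4 in WT (SD, n = 5 each), and 6 of 10 atpc1-1 columns were below all WT columns. Measured against the column median DI21 hardly separated the genotypes, at 1.68 to 7.40 times in atpc1-1 and 2.18 to 5.28 times in WT. Its log2 difference after median centring was -0.43 (SE 0.37), with 2 of 5 atpc1-1 replicates below all of WT.

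SIS was the dimmest of the 4 and the only one with values at 0. It was listed at 0 in atpc1-1 columns 6, 8 and 10 and was above 0 in all 10 WT columns. Its deposited intensity was lowest at 0, had a median of 0.0135 and was highest at 0.202 in atpc1-1 columns, against 0.114, 0.210 and 0.373 in WT columns. A single atpc1-1 column, column 2 at 0.202, lay within the WT range. Its partner, column 1, stood at 0.00633, so these columns of one pair differed 31.9-fold. In WT the columns of a pair differed by at most 1.46-fold.

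The loss of signal at 0 was common in the table: 530 of 3439 rows, or 15.4%, were at 0 in 3 or more atpc1-1 columns and in no WT column. Log2 values of SIS use the 7 atpc1-1 columns above 0 and so leave out its lowest readings. On the quantile-normalised log2 scale atpc1-1 replicates 1 to 5 stood at -4.35, -3.86, -4.11, -6.16 and -4.28, against -2.80, -3.24, -2.34, -3.70 and -2.62 in WT. All 5 atpc1-1 replicates were below all 5 WT replicates, but replicates 3, 4 and 5 of atpc1-1 rest on 1 column each. With 0.1 added to every value before the log and quantile normalisation, which keeps the zeros, the difference was -0.32. The added 0.1 shrinks log2 changes of values this low, and the part due to the quantile step is not separated here. With each zero replaced by the smallest positive value of the table before quantile normalisation, the difference was -3.05.

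By rank the separation of SIS was weaker. Its percentile ran from 5.61 to 53.5 in atpc1-1 columns, with a median of 16.1, against 12.4 to 36.6 in WT columns, with a median of 26.0. The atpc1-1 column at 53.5 was column 2, above every WT column, and 3 of 10 atpc1-1 columns were below every WT column. Those were columns 6, 8 and 10, where SIS was at 0 and shared the mean rank of all rows at 0. Their percentile therefore follows the share of zeros in the column. The 7 atpc1-1 columns with SIS above 0 lay within the WT range or above it. The mean difference in percentile was -6.90 (SE 6.07). It was -11.7 without atpc1-1 replicate 1, which holds column 2, and -4.31 without WT replicate 3.

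CCL was one of the brightest rows on the array in both genotypes. Its deposited intensity was lowest at 12.7, had a median of 17.44 and was highest at 20.1 in atpc1-1 columns, against 15.9, 19.2 and 22.8 in WT columns. The ranges overlapped broadly, and 2 of 5 atpc1-1 replicates were below all of WT. The mean was 16.6 ± 2.4 in atpc1-1 and 19.2 ± 2.8 in WT (SD, n = 5 each), so that atpc1-1 was 1.16-fold lower on the log2 deposited scale, a difference smaller than the sum of the SDs. The highest CCL value was far below the table's maximum of 100.

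The rank of CCL nevertheless separated the genotypes in every column. Between 27 and 40 rows were brighter than CCL in atpc1-1 columns, with a median of 29.5, against 12 to 24 rows in WT columns, with a median of 14.5. In percentiles this was 98.8 to 99.2 in atpc1-1 and 99.3 to 99.7 in WT. The median-centred value went the other way. CCL was 57.5 to 143.5 times the column median, zeros included, in atpc1-1 columns and 33.9 to 63.8 times in WT columns. After centring on the median of the values above 0 its log2 difference was 0.95 (SE 0.29), with 4 of 5 atpc1-1 replicates above all of WT.

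**Figure D1:**
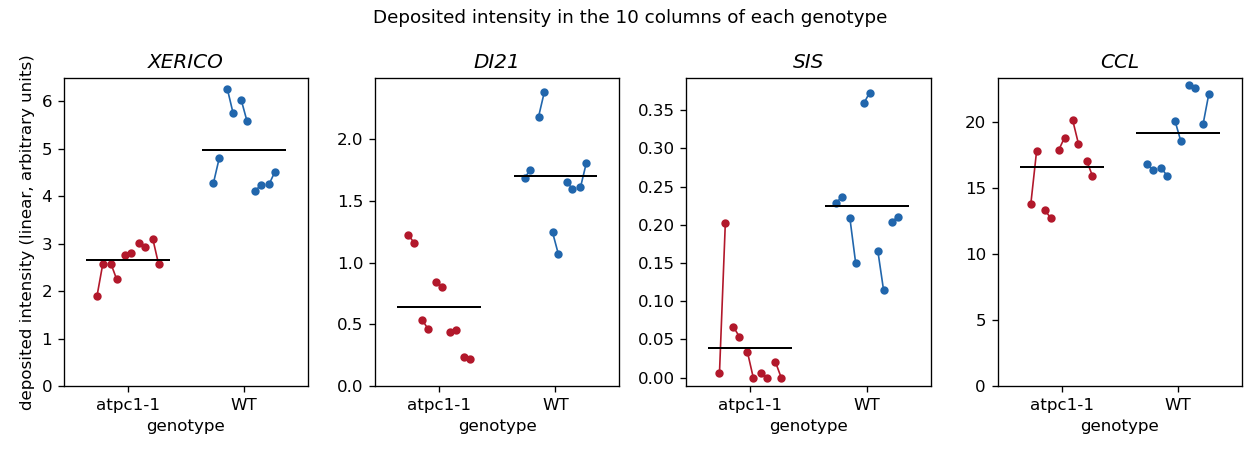
Deposited intensity (vertical axis, linear, arbitrary units) of the 4 genes in the 10 atpc1-1 columns (red) and the 10 WT columns (blue). Each point is 1 column, lines join the 2 columns of a replicate, and black bars are the means of 5 replicates: XERICO columns do not overlap between genotypes, CCL columns do, and 3 atpc1-1 columns of SIS stand at 0.

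**Figure D2:**
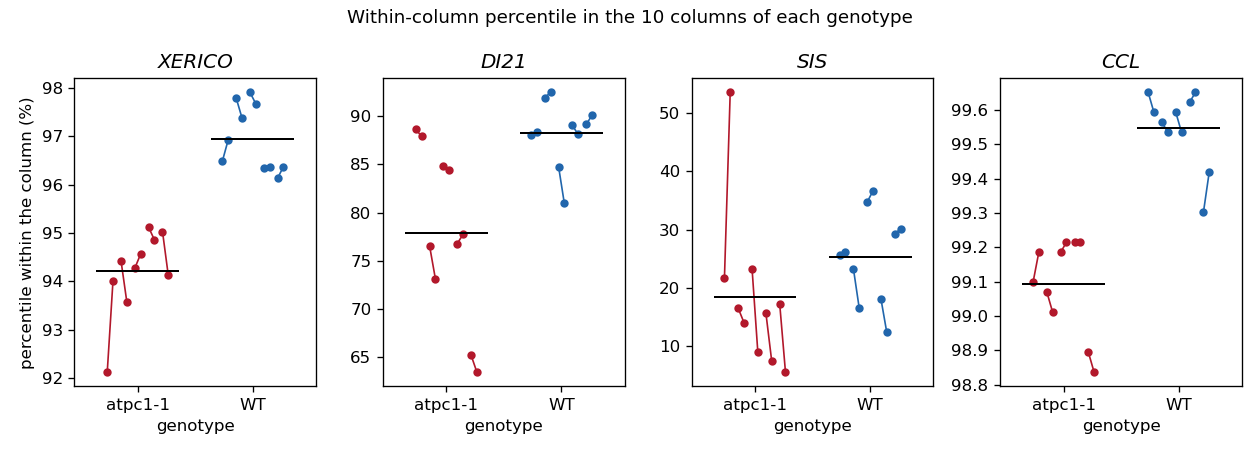
Percentile of each gene among the 3439 rows of its own column (vertical axis, in %, a separate range for each gene) in atpc1-1 (red) and WT (blue). Points are columns, lines join the 2 columns of a replicate and black bars are means of 5 replicates; XERICO and CCL are lower in every atpc1-1 column than in any WT column, whereas DI21 and SIS overlap.

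Over the whole table, limma's fit on the quantile-normalised values called 24.5% of 3298 rows at an adjusted p under 0.05, with 14.3% of rows lower in atpc1-1 and 10.2% higher. The 4 genes were all among the rows called lower on that scale. On the deposited scale 3 of them were called lower, as were 1896 of 3298 rows. After median centring 1 was called lower and 1, CCL, higher, where 403 and 497 of 3298 rows were. Since the genotype comparison chose these genes, nothing is read from these counts. In 3 of the 4, all but DI21, every atpc1-1 replicate was below every WT replicate on the quantile-normalised scale, as in 10.3% of all rows. A separation of all 10 atpc1-1 columns below all 10 WT columns by percentile, as in XERICO and CCL, occurred in 90 of 3439 rows, or 2.62%, and the opposite separation in 4.89%.

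The direction of XERICO and CCL depended on the scaling, and that of DI21 and SIS did not among the 5 scalings compared. With each column divided by its mean, the log2 differences were -0.76 for XERICO, -1.45 for DI21, -2.98 for SIS and -0.0665 for CCL, where the median of all rows was -1.08. With cyclic loess, which fits the difference between columns as a curve over brightness, they were -0.93, -1.04, -2.08 and -0.72 in the same order, with a median of all rows of -0.16. XERICO and CCL turned positive with median centring alone.

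**Figure D3:**
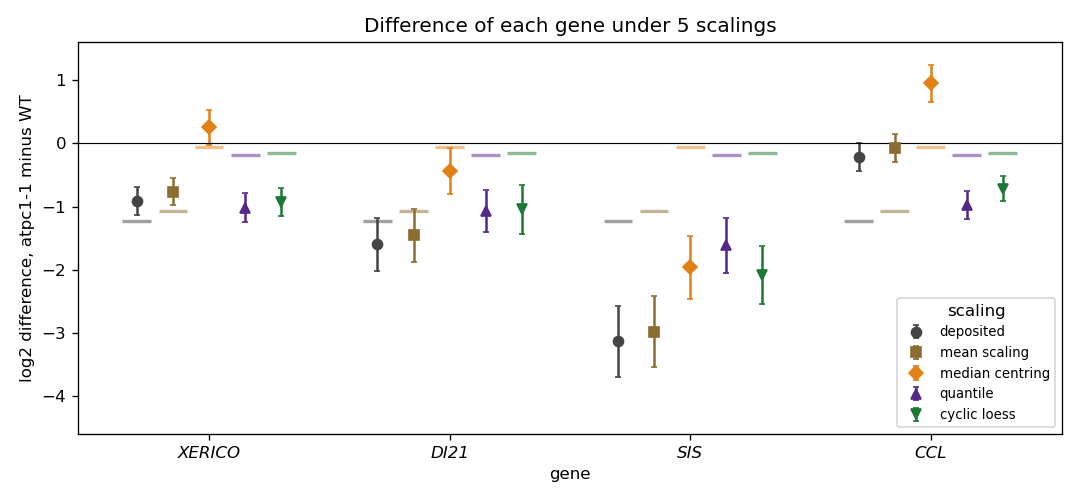
Log2 difference, atpc1-1 minus WT, of each gene (horizontal axis) under 5 scalings; symbols are the estimates, error bars are SE (n = 5 replicates per genotype) and pale dashes are the median of all 3298 rows under that scaling. XERICO and CCL lie above 0 with median centring, at 0.26 and 0.95, while DI21 and SIS lie below 0 with all 5 scalings.

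The genotype difference changed with brightness across the table. The 3298 rows were ordered by the mean of both genotypes and cut into 10 bands of 329 or 330 rows. On the deposited scale the median log2 difference was -0.63 in the dimmest band, -1.80 in the fourth and -0.17 in the brightest. After median centring the same bands stood at 0.53, -0.63 and 0.99, and only 3.65% of rows in the brightest band were lower in atpc1-1. After quantile normalisation they stood at 0.99, -0.46 and -0.23. SIS fell in the dimmest band, DI21 in the ninth, and XERICO and CCL in the brightest.

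Against rows of like brightness, XERICO, DI21 and SIS were lower under every scaling compared. The XERICO difference minus its band's median was -0.74 on the deposited, mean-scaled and median-centred values, which differ only by a constant per column, and -0.78 after quantile normalisation. In the brightest band 8.51% of rows had a more negative difference than XERICO on the deposited scale and 7.29% after quantile normalisation. For DI21 this distance was -0.91 on the deposited scale and -0.93 after quantile normalisation, with 12.1% and 11.52% of rows more negative. For SIS it was -2.49 on the deposited scale and -2.60 after quantile normalisation, with 5.45% and 5.15% of rows more negative. Against the 100 rows nearest to SIS in brightness it was smaller, at -1.70 on the deposited scale and -1.80 after quantile normalisation. These SIS values leave out its atpc1-1 columns at 0. With bands formed from the WT mean alone, the distances after quantile normalisation were -0.64 for XERICO with 16.4% of rows more negative, -0.67 for DI21 with 25.5% and -1.45 for SIS with 3.03%.

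CCL did not keep such a distance. On the deposited scale its difference minus the median of the brightest band was -0.0422, and 46.5% of that band's rows were more negative. After quantile normalisation it was -0.74, with 7.90% more negative, and -0.60 with 17.0% more negative when bands were formed from the WT mean. Against the 100 rows nearest to CCL in brightness the distance was -0.17 on the deposited scale and -0.65 after quantile normalisation.

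**Figure D4:**
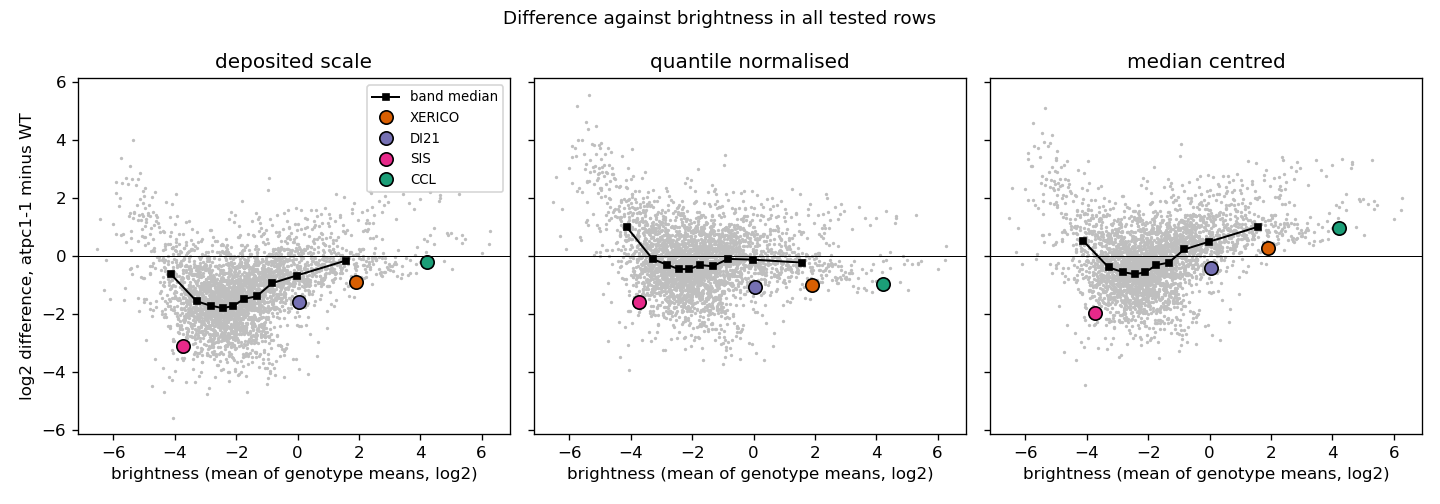
Log2 difference, atpc1-1 minus WT (vertical axis), against brightness (horizontal axis, mean of the genotype means on the quantile-normalised log2 scale) for the 3298 tested rows (grey), with the median of each of 10 brightness bands (black squares) and the 4 genes (coloured). The band medians run from -0.63 to -0.17 on the deposited scale with a low of -1.80 between, and XERICO, DI21 and SIS lie below their band's median in all 3 panels, whereas CCL lies on it on the deposited and median-centred scales.

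The change of one member relative to another also differed between scalings. On the deposited scale, where a factor applied to a whole column cancels in the ratio but a constant added to it does not, the log2 ratio of XERICO to CCL changed by -0.70 in atpc1-1 relative to WT (SE 0.19), and 4 of 5 atpc1-1 replicates had a lower ratio than every WT replicate. The ratio of DI21 to CCL changed by -1.39 (SE 0.47) and that of SIS to CCL by -2.92 (SE 0.71). After quantile normalisation the same changes were -0.04 (SE 0.20), -0.09 (SE 0.33) and -0.64 (SE 0.55), and with cyclic loess -0.21 (SE 0.19), -0.32 (SE 0.43) and -1.36 (SE 0.55). With 0.1 added before quantile normalisation the ratio of SIS to CCL changed by 0.52 (SE 0.28). Whether the members changed by unequal amounts is therefore not settled by these values.

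All differences kept their sign without WT replicate 5, the WT replicate that stood closest to atpc1-1. On the quantile-normalised log2 scale they were then -1.09 for XERICO, -1.03 for DI21, -1.53 for SIS and -1.07 for CCL. On the deposited scale they were -0.95, -1.59, -3.14 and -0.18 in the same order, and after median centring 0.31, -0.33, -1.87 and 1.08.

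Genes with a pattern like each member were sought among rows listing 1 gene that were above 0 in all 20 columns, by Spearman correlation of the quantile-normalised values over the 20 columns (17 for SIS). The points fall into 2 genotypes and the columns of a pair share a replicate, so these values only describe likeness. For XERICO the 3 most alike of 320 rows were AT2G27290 (rho 0.950), AT2G46850 (0.877) and AT5G39980 (0.859). Within genotypes, after subtracting the genotype means, the Pearson correlation with AT2G27290 was 0.67, while those with AT2G46850 and AT5G39980 were 0.12 and 0.26, so the likeness of the last pair lay mainly between the genotypes. For DI21 they were AT1G24040 (rho 0.893), AT3G26630 (0.797) and AT3G47650 (0.773), and AT1G24040 also followed DI21 within genotypes at 0.75. For CCL they were AT3G44570 (rho 0.895), AT1G30700 (0.877) and AT3G56010 (0.875), with correlations within genotypes of 0.57, 0.59 and 0.66. By rank correlation SIS had no row as alike: the nearest of 321 were AT1G17744 (rho 0.701), AT3G32940 (0.689) and PPDK (0.686), the pyruvate orthophosphate dikinase. Their correlations with SIS within genotypes were 0.30, 0.19 and 0.68.

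No other gene looked up in these pathways had a row annotated with that gene alone. The 1877 rows that list no gene could not be looked up by name and may report some of them. Of 297 entries in 9 gene lists, covering abscisic acid synthesis and signalling, drought, salt and cold response, the circadian clock and its outputs, dark and sugar response, antioxidant and heat stress, RING-type ubiquitin ligases, and root and seed markers, 0 had a row listing that gene alone. Among them, 7 occurred only in rows listing several genes, from which no gene was named. The core clock genes CCA1, LHY and TOC1 and the abscisic acid response genes RD29A and RAB18 were among those without a row listing them alone. Neither the phase of the clock nor the tissue could be checked from the marker genes named in this table.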

How the data were processed

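The authors deposited array intensities on a linear scale, 1 column per sample (20 columns, 3439 rows). For background correction, scaling and filters nothing is stated in the sources used here. Genes were named by the platform annotation, with symbols brought up to date from the TAIR10.1 gene table of RefSeq. Of the rows, 692 list 1 gene, 870 several and 1877 none.

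Intensities were taken to log2 with 0 as missing and quantile normalised (limma 3.58.1, R 4.3.3). Pairs of adjoining columns were averaged to 5 replicates per genotype, log2 values on the log2 scale, and intensities and percentiles as plain averages. Rows with at least 3 replicates in each genotype were fitted with lmFit and eBayes, with Benjamini-Hochberg adjustment over all rows. Percentiles were taken within each column over all rows, with rows at 0 sharing their mean rank. Multiples of the column median used the median of all rows, zeros included, and median centring used that of the values above 0. Brightness bands used the mean of both genotype means. Like genes were the 3 highest rank correlations for each member. The number of arrays limits the precision.

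The members, gene lists and tests were chosen with earlier results of these data known. No sequence or coordinate is given, as the sources used here name no genome build.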

Additional observations from a re-analysis of the deposited data

Results flagged for a closer look

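Of the 8 groups formed by 4 genes and 2 genotypes, each of 5 replicates, 1 held a replicate far from the others on the quantile-normalised log2 scale. In atpc1-1, SIS replicate 4 stood at -6.16 and the next replicate at -4.35, a gap of 0.786 of the group's range. Chance flags about 1 in 20 groups. That replicate rests on column 7, with a deposited intensity of 0.00572, since column 8 was at 0. Without it the SIS difference was -1.21, against -1.61 with all replicates.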

How the results depend on the processing

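Counts of all rows called higher and lower in atpc1-1, 337 and 471 after quantile normalisation, were 126 and 1896 without normalisation, 150 and 1666 with mean scaling, and 516 and 827 with all 10 columns as replicates. Rows called higher were 605 with a pseudocount. Rows called lower were 293 with cyclic loess, 243 with zeros replaced by the smallest positive value and 311 over rows above 0 in all columns. These counts come from unequal numbers of tested rows and are not shares. The main fit tested 3298 rows, and the fit with all 10 columns as replicates 3086. With a pseudocount or with zeros replaced 3439 rows were tested, and over rows above 0 in all columns only 1761. With 1 replicate left out they ranged from 194 to 417 higher and from 258 to 540 lower, and without WT replicate 1, 2, 3 or 4 they were 194 to 215 higher and 258 to 263 lower.

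Log2 differences turned positive only with median centring, to 0.26 for XERICO and 0.95 for CCL, and to 0.31 and 1.08 when WT replicate 5 was also left out, a setting added after seeing the data. On the deposited scale DI21 stood at -1.60, SIS at -3.13 and CCL at -0.21, and without WT replicate 5 at -1.59, -3.14 and -0.18. Median centring gave -0.43 for DI21, and -0.33 without WT replicate 5. Mean scaling gave -2.98 for SIS and -0.0665 for CCL. Cyclic loess gave -0.72 for CCL. SIS stood at -3.05 with zeros replaced by that smallest value and at -0.32 with a pseudocount, so its size depends on how zeros are treated. No SIS value could be had over rows above 0 in all columns. With 1 replicate left out the differences ranged from -1.09 to -0.92 for XERICO, -1.25 to -0.86 for DI21, -1.80 to -1.21 for SIS and -1.07 to -0.91 for CCL.

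The percentile difference of XERICO was -2.73, and -3.58 among rows above 0 alone. With 1 replicate left out that of SIS ranged from -11.7 to -4.31. The distance of SIS from its brightness band was -2.60, and -1.45 with bands by the WT mean and -1.80 against the 100 nearest rows, the last added after seeing the data. That of CCL was -0.74, and -0.0422 on the deposited, mean-scaled and median-centred values.

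With the replicate number as a block, which cannot move a difference when every number occurs in both genotypes, 317 rows were called higher and 415 lower. Same-numbered replicates of the genotypes correlated at 0.05 to 0.34 in their deviations, and 2 of 5 atpc1-1 replicates correlated best with their own number, so the numbers were not taken as pairing.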

Other observations

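A further row lists SIS together with AT5G59080 and AT3G46880. Its deposited intensity was lowest at 0.0227, had a median of 0.0823 and was highest at 0.224 in atpc1-1 columns, against 0.0999, 0.250 and 0.432 in WT columns. The annotation does not say which of the 3 genes the row reports.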
